A study of Homo sapiens with 3 samples.

Results

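Keratin genes were taken as every gene with a coding RefSeq transcript (an NM row) in the footprint tables of A549, H1299 and HBE cells whose symbol is KRT, a number and at most 1 of the letters A to C. The rule found 55 of 19262 genes, with 63 of 37397 NM rows, and used no measured value. Of the 55 genes, 29 are type I and 26 are type II keratins, so they hold hair, root sheath and suprabasal keratins beside the basal and simple ones. Ribosome profiling, in which the RNA fragments that bound ribosomes shield from a nuclease are read, was done with 1 library per line on 3 human lung lines grown in complete DMEM under normal conditions. A549 and H1299 are lines of non-small cell lung cancer, and HBE is a line of bronchial epithelial cells. No line carried an added agent or allele according to the labels, and each stands for a single cell line and not for a tissue. There are no replicates, so a ratio sets 1 library against another and no more. No p-values are given, and intervals cover counting error only.

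Keratins form the intermediate filaments of epithelial cells. An acidic type I chain and a basic type II chain join as an obligate heterodimer, and a chain without a partner is usually degraded. KRT8 and KRT18 are the pair of simple epithelia, to which KRT7 and KRT19 are added in ducts and airways, while KRT5 with KRT14 or KRT15 marks basal cells of stratified and pseudostratified epithelia, and KRT6, KRT16 and KRT17 are induced in wounded or hyperproliferative epithelium. Apart from KRT18, the type I genes lie together on chromosome 17 and the type II genes on chromosome 12.

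The A549 library held 38268527 mapped reads, the H1299 library 35751992 and the HBE library 43580281, of which 79.2% to 81.8% lay on NM rows. Reads per gene were scaled by these NM reads, and 10 reads stand for 0.29 to 0.35 RPM on this scale. Of 6 epithelial markers, the 4 that are not keratins (EPCAM, CDH1, CLDN4 and CLDN7) were lower in A549 and in H1299 than in HBE by the call used below. EPCAM, an epithelial adhesion molecule, had 541 reads in A549, 61 in H1299 and 18183 in HBE. The marker lists of fibroblasts, leukocytes, endothelium, ciliated cells and alveolar type 2 cells had no marker called in any pair of lines and no marker at 0, with summed levels, in RPKM over NM reads, of 6.63, 57.1, 6.94, 4.88 and 3.12 in A549, 6.71, 61.5, 7.32, 5.61 and 3.17 in H1299, and 5.38, 30.7, 8.87, 3.20 and 2.16 in HBE. Their part in the keratin values was not tested.

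Keratin footprints were most abundant in A549 and least abundant in H1299. The 55 genes took 447304 reads in A549, 50144 in H1299 and 226068 in HBE. These are 1.43% of the NM reads in A549 (95% Clopper-Pearson interval 1.42 to 1.43), 0.176% in H1299 (0.175 to 0.178) and 0.655% in HBE (0.652 to 0.658), so the shares of the 3 libraries lie far outside each other's counting intervals. A footprint count joins the amount of a transcript and its use by ribosomes, which cannot be told apart here, nor can fewer cells with a transcript and less of it per cell. A few genes carried the sums. In A549 11 keratins had 1000 reads or more, in H1299 4 and in HBE 14, while the median keratin had 124 reads in A549, 87 in H1299 and 136 in HBE.

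Nearly every keratin had some reads, hair and root sheath keratins included. At least 10 reads lay on 55 of the 55 genes in A549, on 55 in H1299 and on 54 in HBE, and the lowest keratin had 15 reads in A549, 12 in H1299 and 8 in HBE. Levels are given as RPKM computed anew with the NM reads as the library total. To set them against genes that lung lines should not use, the 95th percentile of 377 olfactory receptor genes, odorant receptors of the nasal epithelium, was taken after the keratin values had been seen. It was 6.13 in A549, 6.15 in H1299 and 4.24 in HBE, and 17 (30.9%), 9 (16.4%) and 21 (38.2%) keratins lay above it in A549, H1299 and HBE, beside 34.7%, 34.1% and 39.6% of all genes. The percentile is no upper limit for these receptors, since the highest of them had a level of 295 in A549, 488 in H1299 and 399.8 in HBE. The 9 of H1299 were above it in all 3 lines, and 23 keratins were above it in any line.

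**Figure D1:**
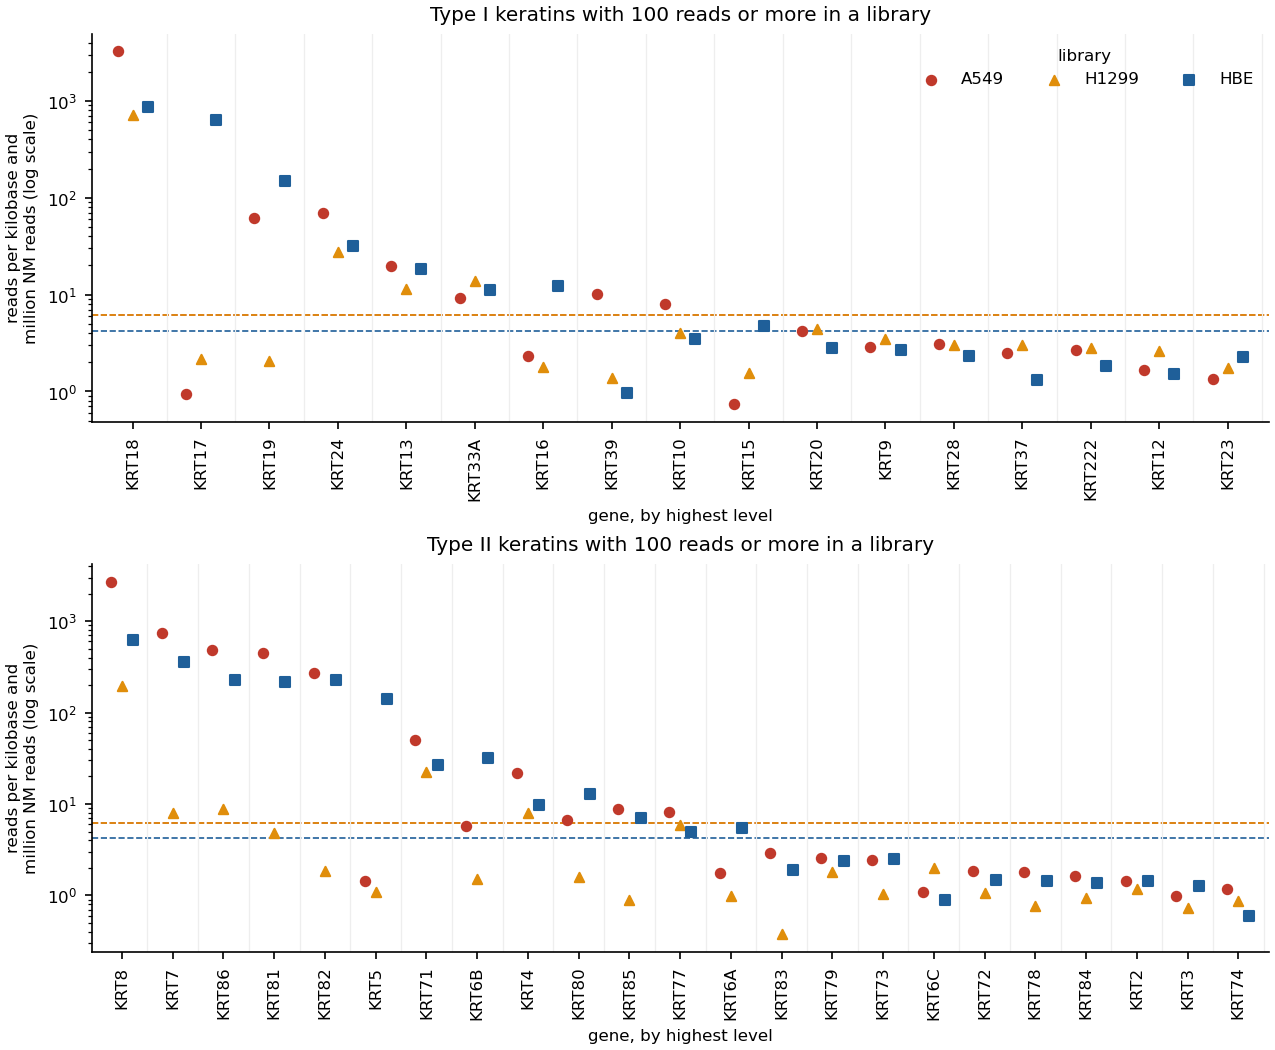
Level of the 17 type I (top) and 23 type II keratins (bottom) with 100 reads or more in a library, in RPKM over NM reads on a log scale, 1 point for each of the A549, H1299 and HBE libraries; dashed lines mark the 95th percentile of the olfactory receptor genes in the line of that colour. KRT18 and KRT8 lead in A549 and H1299, KRT17 and KRT5 stand high only in HBE, and KRT7, KRT81, KRT82 and KRT86 are high in A549 and HBE and low in H1299.

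A keratin was called higher or lower where the ratio of scaled reads was at least 4 and its exact 95% interval lay wholly beyond 2, with at least 20 reads over both libraries. All 55 keratins could be tested in each pair. In A549 against HBE, 2 keratins (3.64%) were higher, beside 1.95% of all 18621 genes tested, and 5 (9.09%) were lower, beside 1.47%. In H1299 against HBE, 13 keratins (23.6%) were lower, beside 2.42% of 18570 genes, and 0 were higher, beside 2.31%. In H1299 against A549, 11 keratins (20%) were lower, beside 2.01% of 18641 genes, and 0 were higher, beside 0.944%. The 3 pairs share libraries, so their counts do not stand apart from each other. Nor do all members, since the keratins called lower in H1299 include genes alike in sequence, such as KRT81 and KRT86. The split of reads between such genes is uncertain. A looser call asked for a ratio of at least 2 and an interval beyond 1. With it 13 keratins were higher and 8 lower in A549 than in HBE, beside 11.9% and 4.41% of all genes. In H1299 against HBE 3 were higher and 17 lower, beside 14.5% and 6.4%, and in H1299 against A549 2 were higher and 18 lower, beside 6.26% and 6.9%.

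Type II keratins made up most of the genes that were low in H1299. Against HBE 10 of 26 type II and 3 of 29 type I keratins were called lower in H1299, and against A549 these were 8 of 26 and 3 of 29. The median log2 ratio of H1299 over HBE was 0.20 for type I and -0.84 for type II keratins, beside 0.38 for all genes tested. For H1299 over A549 it was -0.28 for type I, -0.99 for type II and 0.02 for all genes, and for A549 over HBE it was 0.42, 0.30 and 0.35. The scaling matters for small differences. The median of all genes lay at 0.01 for A549 over HBE and at 0.02 for H1299 over HBE under TMM factors, so log2 ratios are given beside the median of all genes. Of the 55 keratins 40 were above and 15 below a ratio of 1 in A549 against HBE, and under TMM factors these were 27 and 28. In H1299 against HBE 21 were above and 34 below, under TMM factors 14 and 41.

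KRT18 and KRT8, the pair of simple epithelia, were the 2 keratins with most reads in each of the 3 libraries. KRT8 (NM_001256282 among its 3 NM rows, minus strand of chromosome 12 from 53290975 to 53298860 in GRCh37) had 153221 reads in A549, 10101 in H1299 and 38373 in HBE. It was the gene of rank 9 by level in A549, 258 in H1299 and 52 in HBE. KRT8 was 4.40 times higher in A549 than in HBE (95% interval 4.35 to 4.45) and 13.8 times lower in H1299 than in A549 (13.5 to 14.1), and both are calls. The first call was near the threshold, since the ratio was 3.48 under TMM factors, 3.84 under upper quartile factors and 3.95 without the 10 transcripts with most reads. In H1299 KRT8 was 3.14 times lower than in HBE (3.07 to 3.21), which missed the call, and 4.03 times lower under TMM factors, which passed it.

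KRT18, the type I partner of KRT8, kept more reads in H1299. This gene, 53342902 to 53346690 on the plus strand of chromosome 12, is the only type I keratin among the type II genes and lies next to KRT8. It had 150649 reads in A549, 30113 in H1299 and 44285 in HBE. Its rank by level was 7 in A549, 59 in H1299 and 28 in HBE. H1299 was 4.55 times below A549 (4.50 to 4.61), a call, and 1.21 times below HBE, which is no call. A549 was 3.75 times above HBE (3.71 to 3.79) and missed the threshold of 4. In the transcript models of GENCODE, 71.6% of the 28-nt windows of KRT18 and 62.6% of those of KRT8 are identical in a keratin pseudogene. The tables hold only 8 non-coding rows with a keratin name, so reads of other pseudogenes, if there were any, cannot be told apart from those of KRT8 and KRT18. The methods list the settings of the mapping but do not explain how reads that match several transcripts were assigned.

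KRT7 and KRT19, which simple epithelia of ducts and airways add to KRT8 and KRT18, had few reads in H1299. KRT7 (type II, 52627027 to 52642705 on the plus strand of chromosome 12) had 40838 reads in A549, 402 in H1299 and 21801 in HBE. H1299 was 92.3 times below A549 (83.8 to 102) and 44.7 times below HBE (40.6 to 49.5), while A549 was 2.06 times above HBE (2.03 to 2.10), no call. KRT19 (type I, 39679869 to 39684560 on the minus strand of chromosome 17) had 2865 reads in A549, 87 in H1299 and 7730 in HBE. It was 29.8 times lower in H1299 than in A549 (24.2 to 37.5) and 72.9 times lower than in HBE (59.4 to 91.7), and 2.45 times lower in A549 than in HBE, no call. KRT20, a keratin of gut and urothelium, stayed low with 238 reads in A549, 225 in H1299 and 177 in HBE, and was called in no pair.

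Among the keratins of basal cells and of wounded epithelium, KRT5 and KRT17 were high in HBE alone. KRT5 (type II, 52908359 to 52914178 on the minus strand of chromosome 12), the type II chain of basal cells, had 104 reads in A549, 72 in H1299 and 11262 in HBE. This is 97.8 times lower in A549 than in HBE (81.0 to 120) and 128 times lower in H1299 than in HBE (102 to 165). KRT17 (type I, 39775694 to 39780827 on the minus strand of chromosome 17), which hair follicles, basal cells and wounded epithelium use, had the largest keratin differences from HBE. It had 46 reads in A549, 96 in H1299 and 34593 in HBE, where it was the gene of rank 49 by level. It was 675 times lower in A549 than in HBE (511 to 932) and 296 times lower in H1299 than in HBE (243 to 367). The level of KRT5 was 1.43 in A549 and 1.09 in H1299, and that of KRT17 0.934 and 2.14. All of these lay under the olfactory receptor percentile, so the sizes of these ratios rest on reads within the range of those genes.

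The usual type I partners of KRT5 had few reads beside it in HBE, and few in the cancer lines. KRT14 had 16 reads in A549, 14 in H1299 and 54 in HBE, with a ratio of A549 over HBE of 0.334 (0.174 to 0.579), which is no call. KRT15, a keratin of basal and stem cells, had 43 reads in A549, 82 in H1299 and 305 in HBE. It was called lower in A549 than in HBE, by 6.37 times (4.67 to 9.08), and not in H1299, where it was 3.06 times lower than in HBE. Among the wound keratins KRT6B had 416 reads in A549, 101 in H1299 and 2594 in HBE, 5.65 times lower in A549 (5.10 to 6.29) and 21.1 times lower in H1299 (17.4 to 26.1) than in HBE. KRT16, its type I companion in wounds, had 124 reads in A549, 87 in H1299 and 728 in HBE, and was called lower in both cancer lines than in HBE, by 5.31 and 6.87 times. KRT6A had 136 reads in A549, 69 in H1299 and 457 in HBE and was called lower in H1299 only, by 5.43 times, beside 3.04 times in A549. KRT6C showed no such pattern, with 80 reads in A549, 133 in H1299 and 72 in HBE.

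These genes are near copies of each other over part of their length. Of the 28-nt windows of KRT6A 42.7% are identical in KRT6B and 48.2% in KRT6C, and of those of KRT6B 54.0% are identical in KRT6C, so the split of reads among the KRT6 genes is uncertain. Of the windows of KRT14 20.2% are identical in KRT16, and 41.8% are identical in a keratin pseudogene, as are 34.8% of those of KRT17. Of the windows of KRT17 7.38% are identical in KRT14 and 5.03% in KRT16, and 41.3% and 22.5% are within 2 mismatches. The start of the rod domain, a conserved stretch, is shown as an example of a place where footprints of these genes can hardly be told apart. The 60 coding bases below are from GRCh37 and are read along the coding strand, which is minus for these genes, with capitals where KRT14 or KRT16 differs from KRT17. They lie at chr17:39780444-39780503 in KRT17, at chr17:39742676-39742735 in KRT14 and at chr17:39768524-39768583 in KRT16.
KRT17: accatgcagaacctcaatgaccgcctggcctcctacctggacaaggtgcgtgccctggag
KRT14: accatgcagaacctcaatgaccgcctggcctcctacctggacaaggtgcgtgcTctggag
KRT16: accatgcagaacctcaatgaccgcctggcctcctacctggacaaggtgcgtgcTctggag
KRT14 and KRT16 each differ from KRT17 at 1 of 60 bases and not from each other. Most of KRT17 is less alike to them, as the shares of windows above show.

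Hair keratins of type II were among the keratins with most reads in A549 and HBE. KRT81, KRT82 and KRT86 are known from the hair shaft, KRT81 and KRT86 from its cortex and KRT82 from its cuticle. KRT81 had 27016 reads in A549, 265 in H1299 and 14312 in HBE. KRT86 had 31861 reads in A549, 521 in H1299 and 16408 in HBE. In levels these are 448 for KRT81 and 487 for KRT86 in A549, 4.83 and 8.75 in H1299, and 215 and 227 in HBE, so both genes ranked among the first 209 genes of A549 and HBE. KRT82 had 22915 reads in A549, 143 in H1299 and 20756 in HBE, with levels of 273, 1.87 and 224.

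All of these were low in H1299. KRT81 was 92.6 times lower in H1299 than in A549 (82.2 to 105) and 44.5 times lower than in HBE (39.5 to 50.5). KRT86 was 55.6 times lower than in A549 (51.0 to 60.8) and 26.0 times lower than in HBE (23.8 to 28.4), and KRT82 145 times lower than in A549 (124 to 173) and 119 times lower than in HBE (102 to 142). Between A549 and HBE they were not called, with ratios of A549 over HBE of 2.08 for KRT81, 2.14 for KRT86 and 1.22 for KRT82, and for KRT82 the log2 ratio of 0.28 became -0.06 under TMM factors. KRT85, of the hair matrix and cuticle, had 691 reads in A549, 63 in H1299 and 611 in HBE, and KRT83, of the cortex, 169, 20 and 123. Both were called lower in H1299, KRT85 by 9.91 times against A549 and 7.95 times against HBE, KRT83 by 7.52 and 4.97 times. KRT84, found in hair, nail and the tongue, had 107 reads in A549, 56 in H1299 and 99 in HBE and was called in no pair.

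Sequence separates some of these genes from each other and some not. Of the 28-nt windows of KRT81 44.2% are identical in KRT86, 21.1% in KRT83 and 14.5% in KRT85, and 37.9% of those of KRT86 are identical in KRT81. The split of reads among these genes is thus uncertain. The GENCODE transcript of KRT86 (52668429 to 52702947 on the plus strand of chromosome 12) spans KRT81 (52679697 to 52685318 on the minus strand) in the genome. The counted RefSeq row of KRT86 starts at 52695649, beyond KRT81, and reads were mapped to RefSeq RNA. Whether the counting used strand is not stated. KRT82 shares 2.18% of its windows with any other gene, and 5.92% with KRT85 when 2 mismatches are allowed. KRT7 shares none with KRT81 or KRT86, and 2.13% when 2 mismatches are allowed. Windows with more mismatches were not counted. Towards the end of the coding sequence KRT81 and KRT86 part. The 60 bases below, shown because they separate this pair, are coding positions 1324 to 1383 of both in GRCh37, read along the coding strand. They lie at chr12:52680174-52680233 on the minus strand in KRT81 and at chr12:52702232-52702291 on the plus strand in KRT86, with capitals where KRT86 differs.
KRT81: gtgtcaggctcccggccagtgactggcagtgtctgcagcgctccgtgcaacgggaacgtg
KRT86: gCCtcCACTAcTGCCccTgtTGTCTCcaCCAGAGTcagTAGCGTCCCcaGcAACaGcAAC
Set side by side without gaps they differ at 42 of 60 bases, so footprints from this stretch can be told apart.

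As the reads were assigned, KRT81 and KRT7 stood in nearly the same proportion in the 3 libraries. The level of KRT81 was 60.2% of that of KRT7 in A549 (95% interval 59.3 to 61.1), 60% in H1299 (51.2 to 70.2) and 59.8% in HBE (58.5 to 61.0), and these intervals overlap. The level of KRT86 was 65.4% of that of KRT7 in A549 (64.5 to 66.4), 109% in H1299 (95.2 to 124) and 63.1% in HBE (61.8 to 64.4). That of KRT82 was 36.7% in A549 (36.1 to 37.3), 23.3% in H1299 (19.1 to 28.2) and 62.3% in HBE (61.1 to 63.4), so for KRT82 the 3 intervals lie apart. The level of KRT81 was 92.1% of that of KRT86 in A549 (90.6 to 93.6), 55.2% in H1299 (47.4 to 64.1) and 94.7% in HBE (92.6 to 96.9). The split of reads between KRT81 and KRT86 is uncertain, so the proportions of both to KRT7 depend on it. In H1299 the levels of KRT81 (4.83) and KRT82 (1.87) lay under the olfactory receptor percentile of 6.15. Those of KRT7 (8.05) and KRT86 (8.75) were little above it, so the H1299 proportions rest on low levels. These proportions were looked at after the reads had been seen and are a description.

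Of the keratins called lower in H1299, some lie beside each other on chromosome 12. In the order of the chromosome KRT7, KRT81, KRT86, KRT83, KRT85, KRT84 and KRT82 follow each other without another keratin between them, and 6 of these 7 were called lower in H1299 than in A549 and than in HBE, KRT84 being the exception. KRT83 had levels of 2.88 in A549, 0.375 in H1299 and 1.90 in HBE, under the olfactory receptor percentile in each line. The split of reads among KRT81, KRT83, KRT85 and KRT86 is uncertain, so their calls may not stand apart from each other. KRT75, the next gene after KRT82, was called in no pair, with 93 reads in A549, 69 in H1299 and 40 in HBE. KRT80, a widely expressed type II keratin that lies before KRT7, had 808 reads in A549, 175 in H1299 and 1727 in HBE, 4.19 times lower in H1299 than in A549 (3.56 to 4.97) and 8.12 times lower than in HBE (6.97 to 9.57). KRT5, KRT6A and KRT6B, also called lower in H1299 than in HBE, lie beyond KRT75. Of the other genes around the cluster ATG101, EIF4B and C12orf80 were called in no pair, while NR4A1, on the side of KRT80, was called lower in H1299 than in HBE. On chromosome 17 the keratins called lower in a cancer line than in HBE came in neighbouring pairs, KRT15 beside KRT19 and KRT16 beside KRT17, with KRT9 and KRT14 between them, and TNS4, which is no keratin and lies near that cluster, was called lower in each pair.

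**Figure D2:**
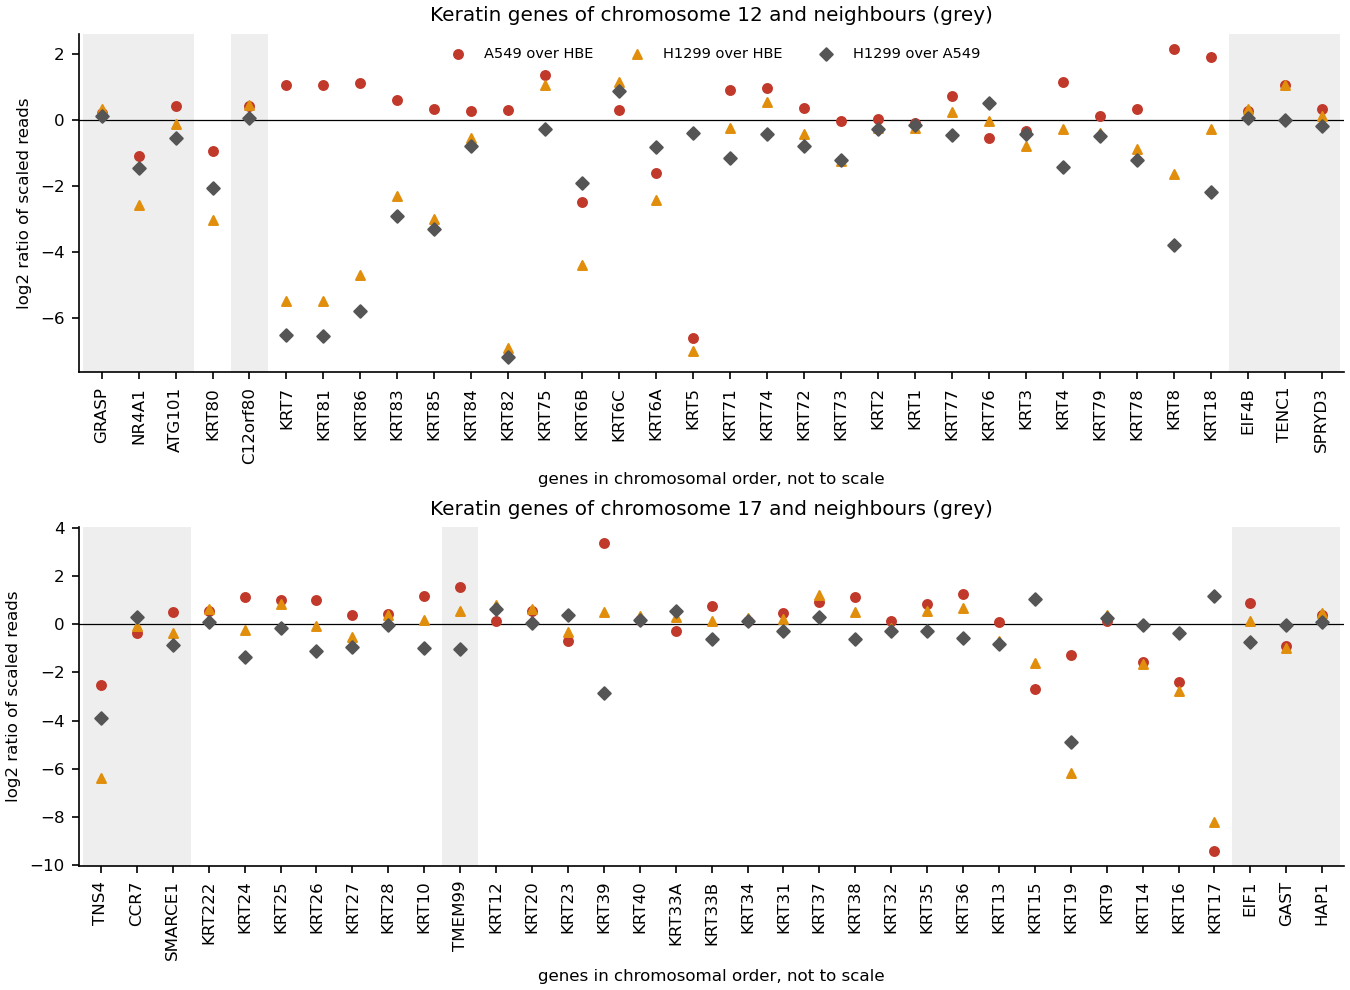
Log2 ratio of scaled reads for the keratin genes of chromosome 12 (top) and 17 (bottom) in chromosomal order, not to scale, with neighbouring genes on a grey ground; circles are A549 over HBE, triangles H1299 over HBE and diamonds H1299 over A549. From KRT7 to KRT82 the triangles and diamonds lie below 0 while the circles lie between 0.25 and 1.10, and KRT5 and KRT17 are far below 0 in both cancer lines against HBE.

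KRT39, a type I hair keratin, was the other gene called higher in A549 than in HBE. It had 535 reads in A549, 66 in H1299 and 56 in HBE. The ratio of A549 over HBE was 10.4 (7.99 to 14.1), and KRT39 was 7.33 times lower in H1299 than in A549 (5.70 to 9.67). Its level was 10.1 in A549, above the olfactory receptor percentile, but 1.37 in H1299 and 0.957 in HBE, under it. The sizes of both ratios thus rest on reads within the range of the olfactory receptor genes. None of the 28-nt windows of KRT39 is identical in another gene. The remaining type I hair keratins with 100 reads or more in a library were KRT33A, with 375 reads in A549, 501 in H1299 and 498 in HBE, and KRT37, with 133, 148 and 78. Neither was called in any pair, and 50.9% of the windows of KRT33A are identical in another keratin. The other 8 hair keratins (KRT31, KRT32, KRT33B, KRT34, KRT35, KRT36, KRT38 and KRT40) had 23 to 97 reads in A549, 17 to 88 in H1299 and 18 to 84 in HBE, with none called. Of the 92 genes of hair keratin-associated proteins, which cross-link hair keratins, 63 had enough reads to be tested in A549 against HBE, and 1 was called higher, beside 1.95% of all genes. This was KRTAP2-3, higher in A549 with 39 reads in A549, 8 in H1299 and 7 in HBE, and also called lower in H1299 than in A549. KRTAP13-1, with 50 reads in A549, 204 in H1299 and 37 in HBE, was called higher in H1299 against both.

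Among the remaining classes no keratin other than KRT80 was called. KRT24, a type I keratin of differentiating epithelium, had 4118 reads in A549, 1479 in H1299 and 2096 in HBE. The root sheath keratin KRT71 had 3565 reads in A549, 1468 in H1299 and 2105 in HBE. Both were above the olfactory receptor percentile in every line, and A549 had about 2 times the scaled reads of HBE on each, with ratios of 2.17 for KRT24 (2.05 to 2.28) and 1.87 for KRT71 (1.77 to 1.97). KRT4 and KRT13, the mucosal pair of oesophagus and mouth, had 1461 and 1057 reads in A549, 492 and 546 in H1299, and 730 and 1086 in HBE. KRT77 of sweat ducts had 839 reads in A549, 555 in H1299 and 566 in HBE, and KRT10, the type I chain of the suprabasal epidermis, 543, 247 and 262.

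The other 12 keratins with 100 reads or more in a library had 72 to 208 reads in A549, 39 to 225 in H1299 and 58 to 211 in HBE. They are KRT2, KRT3, KRT9, KRT12 and KRT78 of suprabasal or corneal epithelium, KRT28, KRT72, KRT73 and KRT74 of the root sheath, and KRT23, KRT79 and KRT222. None of them was called. KRT9, the keratin of palms and soles, had 208 reads in A549, 225 in H1299 and 211 in HBE, and KRT12, the corneal type I chain, 105, 149 and 105. The last 6 members outside the hair class and KRT14 had still fewer reads, KRT25, KRT26, KRT27 and KRT75 of the root sheath 15 to 93 in A549, 12 to 69 in H1299 and 8 to 40 in HBE, and KRT1 and KRT76 43 reads each in A549, 35 and 56 in H1299 and 51 and 70 in HBE.

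Since a filament needs both types of chain, the summed level of type I was set against that of type II in each library. The type I sum was 3452 and the type II sum 4785 in A549, 807 and 276 in H1299, and 1757 and 1900 in HBE. Type I over type II was thus 0.721 in A549 (95% interval 0.717 to 0.726), 2.93 in H1299 (2.87 to 2.98) and 0.925 in HBE (0.917 to 0.932), so H1299 alone had more type I than type II. KRT18 made up 93.9% of the type I sum in A549, 88.3% in H1299 and 49.2% in HBE, where KRT17 added 36.3%. KRT8 made up 56.6% of the type II sum in A549, 71.2% in H1299 and 32.4% in HBE, and KRT7 15.6%, 2.92% and 19%. Without the hair class, left out after its reads had been seen, the ratio was 0.960 in A549, 3.03 in H1299 and 1.42 in HBE, which turns HBE to more type I than type II. Over coding length in place of transcript length it was 0.64, 2.6 and 0.809.

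**Figure D3:**
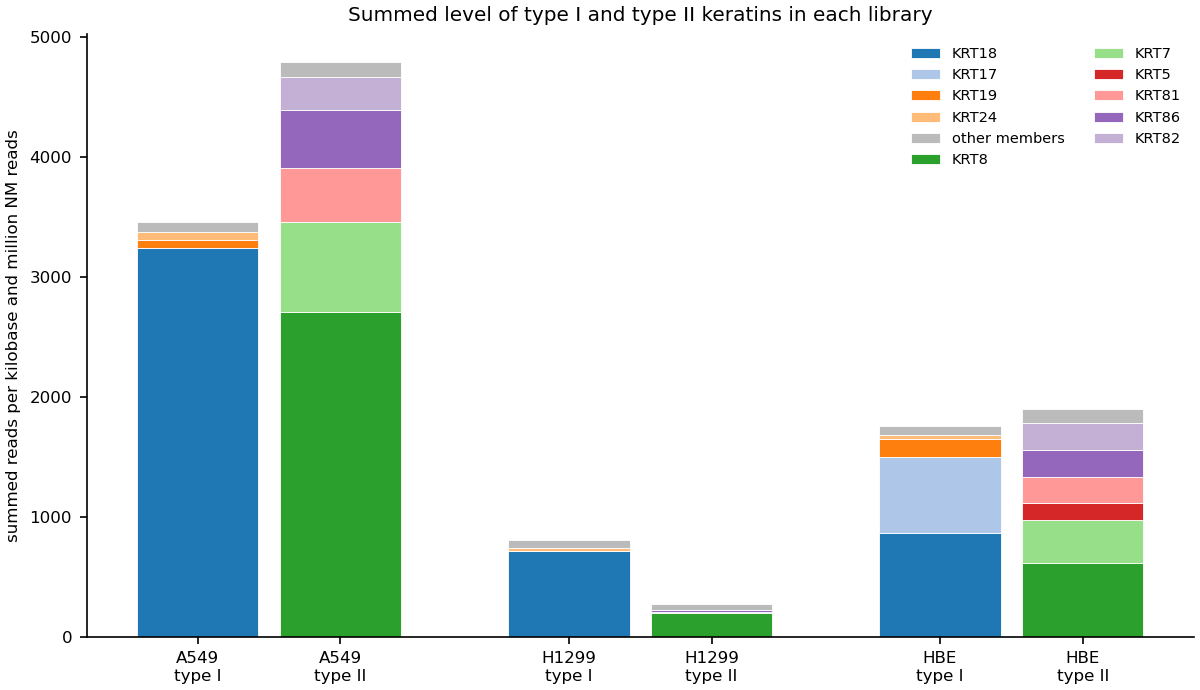
Summed level of type I and type II keratins in the A549, H1299 and HBE libraries, in RPKM over NM reads, with the genes of largest level in colour and all other members in grey. Type II exceeds type I in A549 (4785 against 3452), type I exceeds type II in H1299 (807 against 276), and in HBE the sums are 1757 for type I and 1900 for type II, with KRT17 visible in HBE only.

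Of 16 known pairs, KRT18 and KRT8 was the pair with most reads on both chains. The level of KRT18 over KRT8 was 1.20 in A549 (1.19 to 1.20), 3.63 in H1299 (3.55 to 3.71) and 1.40 in HBE (1.39 to 1.42), so the pair was least even in H1299. KRT14 over KRT5 was 0.216 in A549 (0.119 to 0.367), 0.273 in H1299 (0.142 to 0.488) and 0.00673 in HBE (0.00505 to 0.00879). In HBE the level of KRT5 was thus 149 times that of KRT14 (114 to 198), and KRT15 over KRT5 was 0.0338 there. Among the type I keratins of HBE the highest level was that of KRT18 with 864, followed by KRT17 with 637, beside 141 for KRT5. KRT17 and KRT5 are not among the 16 pairs, and whether they pair here was not tested.

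KRT19 over KRT7 was 0.0825 in A549 (0.0794 to 0.0857), 0.255 in H1299 (0.200 to 0.322) and 0.417 in HBE (0.406 to 0.428), so KRT7 exceeded KRT19 in each line. KRT17 over KRT6B was 0.164 in A549 (0.118 to 0.222), 1.41 in H1299 (1.05 to 1.88) and 19.7 in HBE (19 to 20.6). KRT16 over KRT6A varied less, at 1.30 in A549, 1.80 in H1299 and 2.27 in HBE, and so did KRT13 over KRT4, at 0.917, 1.41 and 1.89. The hair pair KRT31 and KRT81 was the most uneven in A549 and HBE, with a level of KRT31 over KRT81 of 0.00101 in A549 (0.000643 to 0.00152), 0.0765 in H1299 (0.0439 to 0.125) and 0.0015 in HBE (0.000888 to 0.00237). The root sheath pair was uneven in the same direction, with KRT25 over KRT71 at 0.00564 in A549, 0.011 in H1299 and 0.00509 in HBE. Where both partners lie under the olfactory receptor percentile, the ratio rests on levels within the range of the olfactory receptor genes. Among others, KRT12 and KRT3 lie under it in each line, and KRT31 and KRT81 in H1299. In A549 and in H1299 so do KRT14 and KRT5, KRT17 and KRT6B, and KRT16 and KRT6A.

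**Figure D4:**
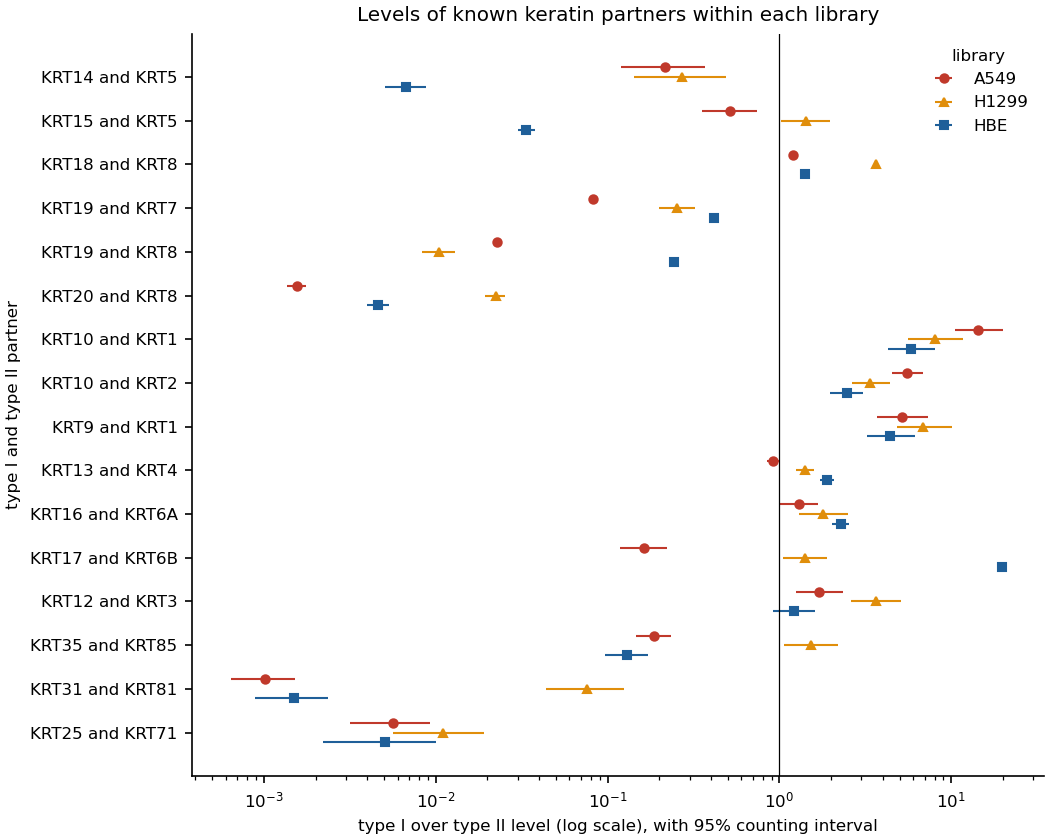
Level of the type I keratin over that of its known type II partner, on a log scale, for 16 pairs in the A549, H1299 and HBE libraries, with 95% counting intervals; the line at 1 marks equal levels. KRT18 and KRT8 lie between 1.20 and 3.63 in the 3 libraries, while KRT14 and KRT5 lie at 0.00673 and KRT17 and KRT6B at 19.7 in HBE.

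Of 12 genes of proteins that link keratin filaments or belong to the desmosomal plaque, 1 was called lower in A549 and 4 in H1299 against HBE, beside 1.47% and 2.42% of all genes, with 0 higher in either. DSP, desmoplakin, which ties keratins to the desmosome, had 3840 reads in A549, 1008 in H1299 and 13680 in HBE, 11.2 times lower in H1299 than in HBE (10.5 to 12.0). JUP, plakoglobin of the desmosomal plaque, had 3600 reads in A549, 127 in H1299 and 5758 in HBE, and was 25.7 times lower in H1299 than in A549 (21.6 to 31.0) and 37.3 times lower than in HBE (31.4 to 45.0). The plaque proteins PKP3 (684 reads in A549, 162 in H1299 and 2906 in HBE) and PPL (536, 430 and 2238) were called lower in H1299 against HBE, and PKP2 (381, 571 and 2103) was called lower in A549 against HBE. The median log2 ratio of the 12 genes was -0.70 in A549 and -1.16 in H1299 against HBE, beside 0.35 and 0.38 for all genes.

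Of 15 other intermediate filament genes 2 were higher in A549 and 3 in H1299 than in HBE, beside 1.95% and 2.31% of all genes, and 0 were lower. VIM, vimentin, the filament protein of mesenchymal cells, had 15327 reads in A549, 43694 in H1299 and 124 in HBE. Its ratio was 136 in A549 over HBE (114 to 164) and 425 in H1299 over HBE (358 to 513), so H1299, with the fewest keratin reads, had the most VIM reads. In H1299 the level of VIM was 713, beside 712 for KRT18. INA, a filament protein of neurons, had 697 reads in A549, 1783 in H1299 and 165 in HBE and was called higher in both cancer lines. NEFH, a neurofilament chain, had 141, 571 and 114 reads and was called higher in H1299 against HBE and against A549.

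Of 12 genes that regulate keratin genes or epithelial differentiation 1 was lower in A549 and 6 in H1299 than in HBE, beside 1.47% and 2.42% of all genes, with 0 higher. TP63, the basal cell factor known to act on KRT5 and KRT14, had 286 reads in A549, 107 in H1299 and 2265 in HBE, 7.17 times lower in A549 (6.35 to 8.15) and 17.4 times lower in H1299 (14.4 to 21.4) than in HBE. ELF3, an epithelial ETS factor, had 5345 reads in A549, 236 in H1299 and 6307 in HBE, and was called lower in H1299 against both. KLF5, SFN and EHF were also called lower in H1299 than in HBE, by 9.60, 9.16 and 6.15 times. Of 12 genes of the cornified envelope, the cross-linked shell of differentiated keratinocytes, 9 had enough reads to be tested against HBE, and 1 was called, beside the same shares of all genes. This was CSTA, cystatin A, with 20 reads in A549, 15 in H1299 and 1794 in HBE, 79.4 times lower in A549 (52.5 to 134) and 95.6 times lower in H1299 (59.7 to 177) than in HBE.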

How the data were processed

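Ribosome footprints of A549, H1299 and HBE cells were analysed with 1 library per line. According to the labels and the methods, rRNA was removed with a Ribo-Zero kit and probes, and libraries were made with a small RNA kit. The authors removed adapters, truncated reads at low Phred quality (below 10) and mapped them with FANSe2, of unstated version, to RefSeq RNA. In their processing notes, the submitters give hg19 as build. The deposited count is a whole number of reads per RefSeq transcript that the authors did not normalize. The deposited RPKM was computed by the authors from that count, the whole transcript length and the sum of all counts, and entered no result here.

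Counts were summed over the NM rows of a symbol and divided by the sum of NM reads. For ratios 0.5 read was added to each count, and exact conditional 95% intervals for 2 Poisson counts were computed (Python 3.11.15, scipy 1.17.1). The call (a ratio of at least 4 and an interval beyond 2, with at least 20 reads over both libraries) was applied to all genes, and the script was tested on simulated data. A level is the sum over NM rows of reads per kilobase, scaled by the NM reads. TMM and upper quartile factors came from edgeR 4.0.16, which served for no test, since single libraries allow none. Windows of 28 nt and coordinates came from GENCODE 44 lifted to GRCh37. Coding length was taken from GENCODE in place of RefSeq proteins, which were not used here, and RefSeq promoters were used for motif counts only.

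Keratins with at least 100 reads in a library are named with their values. Genes of the other lists are named where called, at most 5 per list, by total reads, and non-coding keratin rows where they have at least 100 reads. Gene lists, classes and partners are from textbooks, and the members and lists were chosen with earlier results of these data known. The alternatives were other scalings, minimum counts, added counts and call rules, NR rows included, libraries thinned to the smallest, and other lengths and transcripts for the ratio of type I over type II.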

Additional observations from a re-analysis of the deposited data

Results flagged for a closer look

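In 11 keratins, 9 of type II and 2 of type I, the interval of A549 over HBE lay above 1 and that of H1299 over HBE below 1, and the difference between the lines was not tested, since each has 1 library. KRT8 was 4.40 times higher in A549 and 3.14 times lower in H1299 than in HBE. KRT7 was 2.06 times higher in A549 and 44.7 times lower in H1299, KRT81 2.08 times higher and 44.5 times lower, and KRT86 2.14 times higher and 26.0 times lower. KRT83 was 1.51 times higher in A549 and 4.97 times lower in H1299, KRT85 1.25 times higher and 7.95 times lower, and KRT82 1.22 times higher and 119 times lower. KRT4 was 2.21 times higher in A549 and 1.22 times lower in H1299, KRT71 1.87 and 1.18 times, and the type I keratins KRT18 3.75 and 1.21 times and KRT24 2.17 and 1.17 times, with no call against HBE for any of these 4. KRT33A, of type I, went the other way, with 1.22 times higher reads in H1299 and 1.20 times lower reads in A549 than in HBE, and neither was a call. Under TMM factors the log2 ratio of A549 over HBE was -0.06 for KRT82 and -0.02 for KRT85, and that of H1299 over HBE was -0.08 for KRT33A, so these 3 directions depend on the scaling.

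Reads also lay on 8 non-coding rows with a keratin name, which enter no comparison above. Together they had 4298 reads in A549, 1030 in H1299 and 2168 in HBE, or 0.961%, 2.05% and 0.959% of the reads of the 55 genes. KRT8P41, a KRT8 pseudogene on chromosome 11, had 3535 reads in A549, 341 in H1299 and 968 in HBE, which is 2.31%, 3.38% and 2.52% of the KRT8 reads. KRT16P2 had 24 reads in A549, 31 in H1299 and 487 in HBE, highest in HBE as KRT16 and KRT17 are. KRT18P55 had 244, 151 and 127 reads, KRT19P2 214, 183 and 201, and KRT42P 253, 301 and 341 in A549, H1299 and HBE. The last 3 rows had up to 23 reads, on KRT16P3 in HBE and on the non-coding isoform of KRT8 in A549, and 5 on KRT16P1 in HBE. Whether these reads came from the pseudogenes or from the coding genes was not tested.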

How the results depend on the processing

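No paired analysis was possible because there are no replicate libraries to pair. No keratin changed its direction with a call under any alternative, and of 600 log2 ratios under other settings 497 stayed within the counting error, 103 moved and 0 called ratios reversed. The count of keratins higher in A549 than in HBE was 1 under TMM factors, 1 under upper quartile factors and 1 without the 10 transcripts with most reads, since KRT8 fell below a ratio of 4. With a ratio of at least 2 and an interval beyond 1, 13 keratins were higher and 8 lower in A549 than in HBE, 3 were higher in H1299 than in HBE, and 2 were higher and 18 lower in H1299 than in A549. Type I over type II was 0.64 in A549, 2.6 in H1299 and 0.809 in HBE with coding length, 0.568, 2.28 and 0.700 with reads not divided by length, and 0.96, 3.03 and 1.42 without the hair class, which was chosen after seeing the data. With the pseudogene rows it was 0.716 in A549. With 1 library per line, differences between cultures of a line cannot be seen, and the split of reads among near copies rests on the authors' mapping.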

Other observations

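The promoter table of RefSeq (GRCh38.p14, 250 bases before to 50 after the gene start) holds 34 of the 55 keratins. It lacks KRT7, KRT17, KRT18, KRT19, KRT81 and KRT86. Also missing are KRT6A, KRT6B, KRT6C, KRT14, KRT15, KRT16, KRT80 and KRT83. The rest of the missing are KRT1, KRT13, KRT23, KRT72, KRT77, KRT78 and KRT222. None of these missing promoters was searched for the letters below. The letters TATAAA on either strand were in 20 of the 34 (58.8%), beside 12.0% of all 27305 promoters. Those of GGGCGG, the core of SP1 sites, were in 6 (17.6%), beside 44.6%, and those of TGANTCA, an AP-1 motif, in 0, beside 7.76%. GCCNNNGGC, a motif of AP-2 factors, was in 5 (14.7%), beside 23.0%. KRT39, KRT71 and KRT82 are among the 20 with TATAAA, and so are KRT25, KRT27, KRT31 and KRT34, which had few reads. KRT5 and KRT8, which the promoter table holds, are not among the 20. Whether the letters go with footprint levels was not tested. A match is a description of the letters and not of binding.

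KRT8 has 3 coding rows that share most of their sequence, and nearly all its reads were counted on 1 of them. NM_001256282 had 153161 reads in A549, 10078 in H1299 and 38357 in HBE. NM_001256293 had 42, 21 and 15, and NM_002273 had 18, 2 and 1. KRT18 shows the same, with 150645 of its 150649 reads in A549 on NM_000224. The sum over rows was therefore used for both genes, and no value is given by isoform.

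TNS4, a gene near the type I cluster on chromosome 17 and no keratin, was singled out after its reads had been seen. It had 1329 reads in A549, 82 in H1299 and 8314 in HBE and was called lower in each pair of lines, in A549 and in H1299 against HBE and in H1299 against A549. NR4A1, near KRT80 on chromosome 12, had 835 reads in A549, 274 in H1299 and 1983 in HBE and was called lower in H1299 against HBE.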
